A study of Mus musculus with 18 samples.

Results

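Keratins and markers of cholangiocytes, the epithelial cells that line the bile ducts, were followed in liver RNA of mice treated with GDF15. The genes were chosen by name as rows of the count table, and 10 of the 16245 genes in it were taken: the keratins Krt7, Krt8, Krt18, Krt19 and Krt23, the surface proteins Epcam and Cd24a, the claudins Cldn4 and Cldn7, and the transcription factor Sox9. All 10 genes were present and all 10 had a mean of at least 10 normalized counts over the 18 samples. The vehicle, GDF15 and pair-fed groups held 6 livers each. The methods describe each liver as a separate mouse. All animals were wild-type (WT) C57BL/6 mice by the labels, and males with a C57BL/6J background by the methods, that were moved to a NASH diet (rich in fat and sugar, under which livers become steatotic, inflamed and scarred) and to housing near 29 °C at 8 weeks of age and were kept singly. Vehicle mice received no GDF15, GDF15 mice received the recombinant protein under the skin once a day, and pair-fed mice were offered what the GDF15 mice had eaten on the preceding day. The labels list doses of 0.3, 1 and 5 nmol/kg without assigning one to these livers, and the study's text and its legend differ in the dose they name for these livers, so the dose behind the values is not given here. Comparing GDF15 with vehicle asks what the treatment changed as a whole, comparing GDF15 with pair-fed asks what it changed at matched food intake, and comparing pair-fed with vehicle asks what eating less changed.

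Keratins are the intermediate filament proteins of epithelial cells, and each filament pairs a type II keratin (such as Krt7 or Krt8) with a type I keratin (such as Krt18, Krt19 or Krt23). Hepatocytes make Krt8 and Krt18 as their main pair, whereas cholangiocytes add Krt7 and Krt19, which hepatocytes largely lack. In injured and fatty livers, bile duct cells and hepatocytes that take on duct features can spread as a ductular reaction, in which EPCAM, SOX9, CD24 and duct keratins are used as markers. In RNA from whole liver, fewer cells of a type and less RNA per cell cannot be told apart.

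Compared with vehicle, 9 of the 10 genes were lower in GDF15-treated livers (DESeq2, Benjamini-Hochberg adjusted p under 0.05 over all genes), and the remaining gene, Krt23, had an adjusted p of 0.0583. Over all 14667 genes tested, 17.5% were lower by the same rule. Of the 9, 6 were also past a log2 fold change of 1 in size, namely Krt7, Krt19, Epcam, Cldn4, Cldn7 and Cd24a, against 5.37% of all genes. The edgeR quasi-likelihood test also placed 9 of the 10 genes lower, against 18.5% of all genes by that test. Compared with pair-fed controls, 4 of the 10 genes were lower, namely Krt8, Krt18, Cldn4 and Cd24a, against 13.8% of 14353 genes, and 2 of these, Cldn4 and Cd24a, were past both thresholds, against 2.75%. By edgeR only Krt8 and Krt18 were lower than in pair-fed livers, against 14.2% of all genes. None of the 10 genes passed the test between pair-fed and vehicle livers (DESeq2, 0.0% of 16242 genes lower). In that comparison edgeR also called 0 genes. Of the 10, 2, Krt7 and Krt19, had an unadjusted DESeq2 p under 0.05 on the lower side, as did 2.65% of all genes. No gene of the 10 was higher in any comparison, against 15.8% of all genes higher than in vehicle, 13.3% higher than in pair-fed and 0.0% higher in pair-fed than in vehicle. All 10 log2 fold changes were negative in each comparison, as were 47.1% of all genes with a mean of at least 10 normalized counts for GDF15 against vehicle, 48.5% for GDF15 against pair-fed and 50.2% for pair-fed against vehicle. The median log2 fold change of the 10 genes was -1.02 against vehicle, -0.61 against pair-fed and -0.59 for pair-fed against vehicle, while the median over all genes tested lay within 0.01 of 0 each time. These comparisons share samples. The log2 fold change of GDF15 against vehicle minus that against pair-fed is the fold change of pair-fed against vehicle, so the different counts in the GDF15 comparisons are not shown to reflect different effects.

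**Figure D1:**
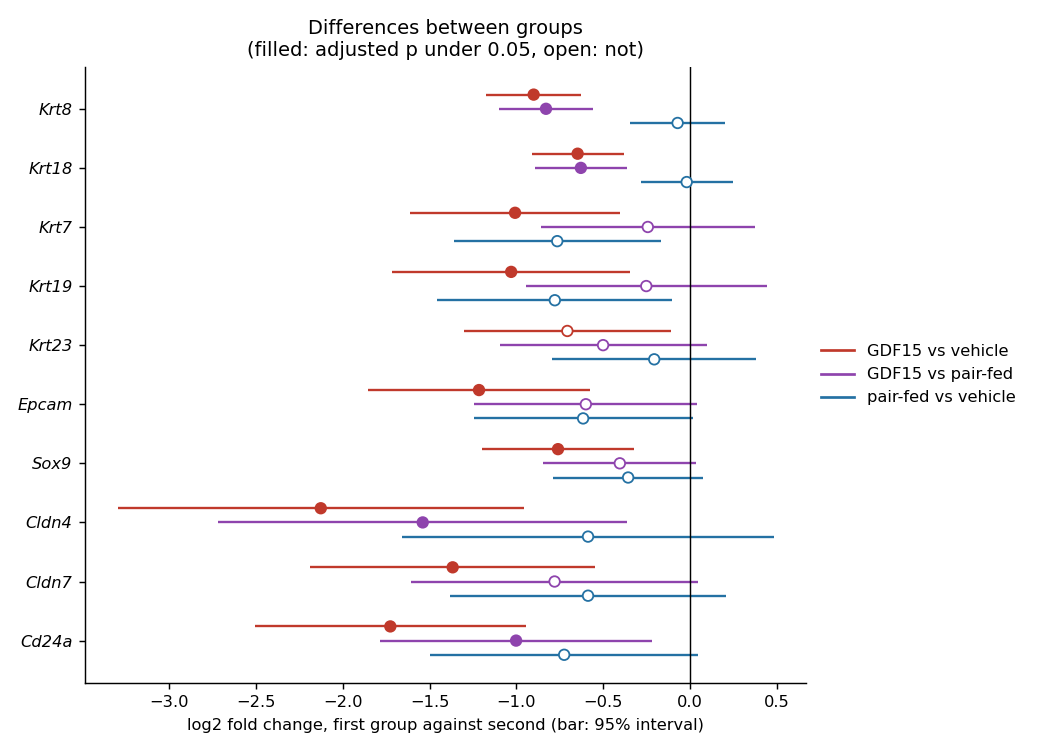
Log2 fold change of each gene (points) with its 95% interval (bars) for the 3 comparisons between groups of 6 mice, from the DESeq2 fit of all 18 samples. For Krt8 and Krt18 the pair-fed against vehicle point sits near 0 (-0.07 and -0.02) and the GDF15 points overlap, whereas for Krt7 and Krt19 the pair-fed against vehicle point (-0.76 and -0.78) is nearer to the GDF15 against vehicle point than the GDF15 against pair-fed point is to it.

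Libraries held 16508864 to 35301853 counts. A floor of 3 counts corresponded to 0.08498 to 0.1817 CPM and covers counting error only, because reads that carry no molecular identifier cannot be counted as molecules. The 3 deepest libraries, at 25047723 to 35301853 counts, were pair-fed replicates 4 to 6. Values below are normalized counts, that is, counts divided by the size factor of their library.

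Krt8, the main type II keratin of simple epithelia and of hepatocytes, was the most abundant of the 10 genes per length. It lies on the minus strand of chromosome 15 at 101996698 to 102004482 (GRCm38, GENCODE M21), and a long non-coding RNA gene on the opposite strand, Gm36026, overlaps it. The lowest, median and highest vehicle livers held 8614, 10349 and 12373 normalized counts, the GDF15 livers 4812, 5690 and 6152, and the pair-fed livers 6747, 9279 and 14294. Every GDF15 liver was below every vehicle liver and below every pair-fed liver. The log2 fold change was -0.90 against vehicle (SE 0.14, DESeq2 adjusted p = 4.62e-09), which is 53.6% of the vehicle level, and -0.83 against pair-fed (SE 0.14, adjusted p = 1.20e-07). Pair-fed against vehicle gave -0.07, with a 95% interval of -0.34 to 0.20. Without pair-fed replicate 4, the lowest pair-fed liver, that last value was 0.020.

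Krt18, the type I partner of Krt8, lies 23697 bases away on the opposite strand of chromosome 15, at 102028180 to 102032027. Its vehicle livers ran from 5351 through a median of 6296 to 6918 normalized counts, its GDF15 livers from 3310 through 3833 to 5037, and its pair-fed livers from 4494 through 5883 to 8714. The GDF15 livers were all below the vehicle livers, and 5 of 6 were below all pair-fed livers, with GDF15 replicate 4 above the lowest pair-fed liver. Krt18 fell by 0.65 on the log2 scale against vehicle (SE 0.13, DESeq2 adjusted p = 2.25e-05) and by 0.63 against pair-fed (SE 0.13, adjusted p = 5.72e-05). The value for pair-fed against vehicle was -0.02 (95% interval -0.28 to 0.25), and without pair-fed replicate 4 it was 0.056. The calls for Krt8 and Krt18 in both GDF15 comparisons were kept in each of the 12 fits that left out 1 of the livers compared.

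The stretches that precede these genes are given because they are a neighbouring pair, transcribed in opposite directions, whose values moved together. They were cut from the RefSeq promoter table (build GRCm38.p6), written 5′ to 3′ along each gene and ended before the first annotated exon.
Krt8 promoter, chr15:102004483-102004592, minus strand: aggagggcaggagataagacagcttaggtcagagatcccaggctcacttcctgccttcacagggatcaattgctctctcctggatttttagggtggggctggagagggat
Krt18 promoter, chr15:102027966-102028179, plus strand: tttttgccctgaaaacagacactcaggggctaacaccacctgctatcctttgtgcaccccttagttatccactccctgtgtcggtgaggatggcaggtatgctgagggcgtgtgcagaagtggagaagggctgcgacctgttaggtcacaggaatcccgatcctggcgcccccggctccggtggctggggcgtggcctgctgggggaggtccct
Neither stretch held any of the 4 motifs searched on both strands. The AP-1 motif was read as TGANTCA and occurred in 6.75% of the 32851 windows of 250 bases before a start in that table. The TATA box was read as TATAAA and occurred in 12.4% of these windows. The GC box was read as GGGCGG and occurred in 32.7% of them. The TEAD motif was read as GGAATG and occurred in 12.6% of them. Both stretches are shorter than that window, at 110 and 214 bases, so the shares are not matched to them.

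Krt7, the type II keratin of ducts, lies at 101411043 to 101430313 on the plus strand of chromosome 15, 566384 bases from Krt8, and an antisense gene, Gm671, overlaps it. The kit keeps the strand of the RNA, but the strand setting used for counting is not given in the sources used here. Vehicle livers held 36.6, 57.7 and 104.8 normalized counts (lowest, median and highest), GDF15 livers 17.4, 32.2 and 45.0, and pair-fed livers 20.9, 37.4 and 66.8. The groups overlapped, with 5 of 6 GDF15 livers below all vehicle livers. Krt7 was lower than in vehicle (log2 fold change -1.01, SE 0.31, DESeq2 adjusted p = 0.00580), while the values were -0.24 against pair-fed (adjusted p = 0.610) and -0.76 for pair-fed against vehicle (unadjusted p = 0.0118, adjusted p = 0.998).

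Krt19, the small type I keratin used to mark bile ducts, lies on the minus strand of chromosome 11 at 100140810 to 100148665. Its lowest, median and highest values were 36.6, 71.6 and 136.4 normalized counts in vehicle livers, 17.4, 36.1 and 53.7 in GDF15 livers and 22.1, 40.8 and 89.4 in pair-fed livers. Only 3 of 6 GDF15 livers were below all vehicle livers, and the pair-fed livers covered nearly the whole GDF15 range. The log2 fold change was -1.03 against vehicle (SE 0.35, DESeq2 adjusted p = 0.0137), -0.25 against pair-fed (adjusted p = 0.643) and -0.78 for pair-fed against vehicle (unadjusted p = 0.0243, adjusted p = 0.998). Without vehicle replicate 1, the highest vehicle liver, the value against vehicle was -0.78 with an adjusted p of 0.0765, and without pair-fed replicate 1 the value against pair-fed was 0.065.

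Krt23, a type I keratin known to be induced in injured liver, lies on the minus strand of chromosome 11 at 99477974 to 99493137. Vehicle livers held 61.7, 105.2 and 121.4 normalized counts (lowest, median and highest), GDF15 livers 14.1, 60.9 and 96.1, and pair-fed livers 53.3, 89.0 and 99.8. The GDF15 group was the most spread of the 3, and its livers did not form 1 range: replicates 1 to 3 held 78.9 to 96.1 and replicates 4 to 6 held 14.1 to 42.9. The log2 fold change was -0.71 against vehicle (SE 0.30, DESeq2 adjusted p = 0.0583) and -0.50 against pair-fed (adjusted p = 0.221). Among replicates 1 to 3 of all groups the value against vehicle was 0.036, and among replicates 4 to 6 it was -1.83. The corresponding values against pair-fed were 0.16 and -1.55. No p is given for these sets, because the GDF15 values of Krt23 separate at this same split. The labels do not say what, if anything, the replicate numbers stand for, and the difference between these sets was not tested. With 1 liver left out, the call against vehicle was reached without vehicle replicate 3 (adjusted p = 0.0314) or without GDF15 replicate 1 (0.0458), 2 (0.0185) or 3 (0.0224), and with total-count scaling it was also reached (log2 fold change -0.87, adjusted p = 0.0181).

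**Figure D2:**
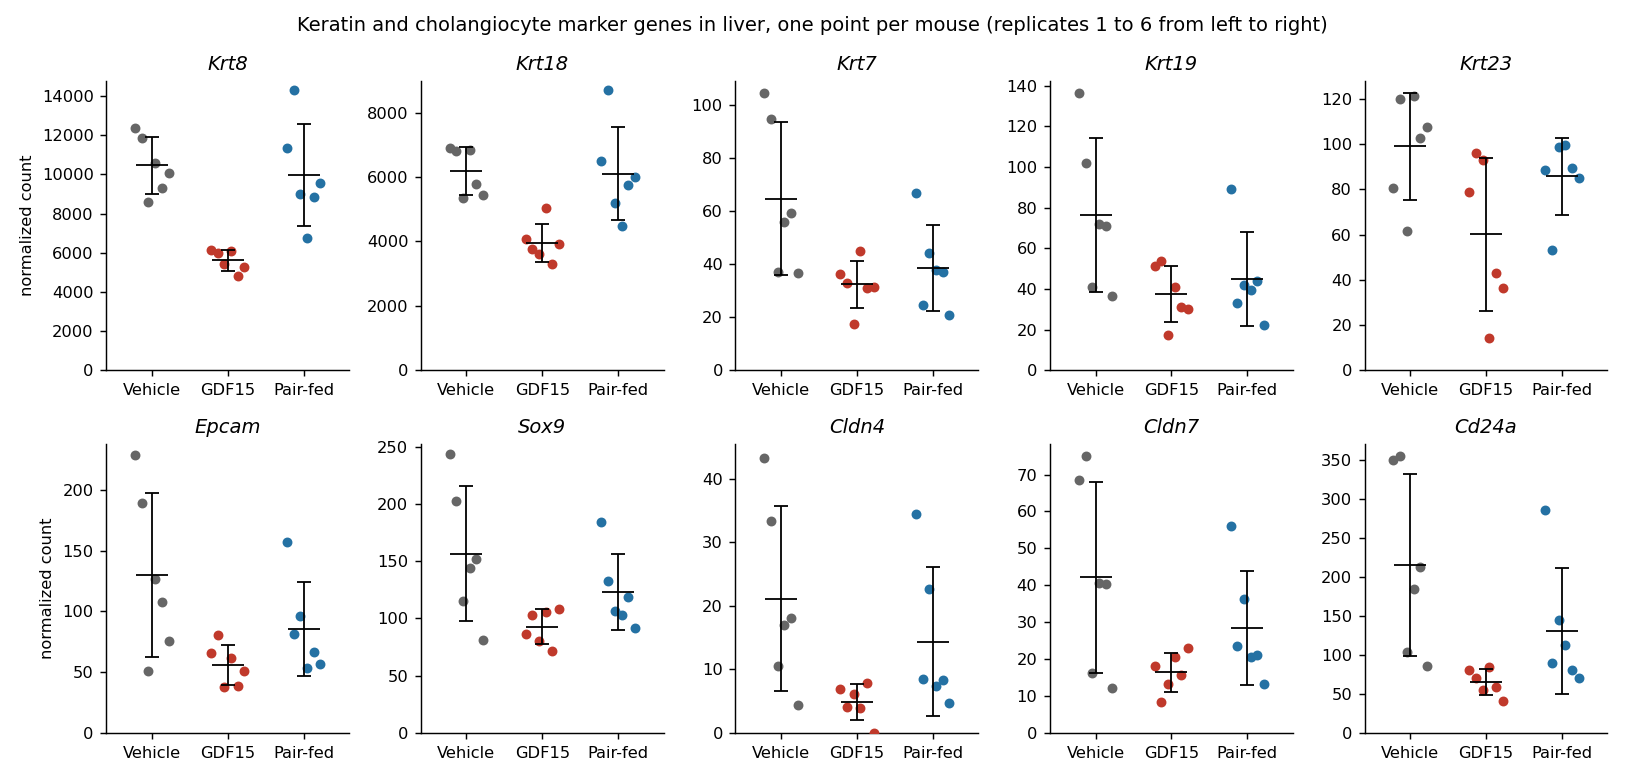
Normalized counts of the 10 genes in each liver (points, replicates 1 to 6 from left to right), with the mean (line) and SD (bar) of each group of 6, on linear axes that start at 0. Krt8 in the GDF15 group sits between 4812 and 6152, below all other livers, while Krt23 in that group splits into 3 livers at 78.9 to 96.1 and 3 at 14.1 to 42.9.

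Epcam, a homophilic adhesion molecule of epithelial cells that adult hepatocytes lack, lies on the plus strand of chromosome 17 at 87635979 to 87651129. Its lowest, median and highest values were 51.2, 117.3 and 228.5 normalized counts in vehicle livers, 37.9, 56.1 and 80.6 in GDF15 livers and 53.6, 73.7 and 157.3 in pair-fed livers. The groups overlapped, and 4 of 6 vehicle livers were above all GDF15 livers. Epcam was lower than in vehicle, at 43.1% of its level (log2 fold change -1.22, SE 0.33, DESeq2 adjusted p = 0.00134), with values of -0.60 against pair-fed (adjusted p = 0.165) and -0.62 for pair-fed against vehicle (adjusted p = 0.998).

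Cd24a, a small glycoprotein tethered to the cell surface by a lipid anchor, which marks duct and progenitor cells and is also made by B cells and other leukocytes, lies on the plus strand of chromosome 10 at 43578284 to 43584265. Vehicle livers held 85.5, 198.6 and 355.3 normalized counts (lowest, median and highest), GDF15 livers 41.0, 64.3 and 84.8, and pair-fed livers 71.0, 101.3 and 285.5. All GDF15 livers were below all vehicle livers, although the lowest vehicle liver and the highest GDF15 liver were nearly level. Cd24a fell to 30.2% of vehicle, a log2 fold change of -1.73 (SE 0.40, DESeq2 adjusted p = 0.000155), and to 49.9% of pair-fed, a log2 fold change of -1.002 (SE 0.40, adjusted p = 0.0463). The second call was at the threshold. It was lost with edgeR (adjusted p = 0.0656) and in 7 of 12 fits with 1 liver left out, those without GDF15 replicate 2 (adjusted p = 0.0635), 3 (0.0825), 5 (0.0808) or 6 (0.102) and without pair-fed replicate 1 (0.160), 3 (0.0815) or 4 (0.0543). Without pair-fed replicate 1 the log2 fold change itself was -0.61.

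Cldn4 and Cldn7 encode claudins, the strand-forming proteins of tight junctions, and both are typical of duct epithelium. Cldn4, on the minus strand of chromosome 5 at 134945119 to 134946934, had the lowest level of the 10 genes. Its lowest, median and highest values were 4.44, 17.5 and 43.3 normalized counts in vehicle livers, 0.0, 5.14 and 7.79 in GDF15 livers and 4.65, 8.41 and 34.5 in pair-fed livers, and the GDF15 values came from 0 to 8 counts, so that some were near the floor of 3 counts. In words, 5 of 6 vehicle livers and 4 of 6 pair-fed livers were above all GDF15 livers. The log2 fold change was -2.13 against vehicle (SE 0.60, DESeq2 adjusted p = 0.00220) and -1.54 against pair-fed (SE 0.60, adjusted p = 0.0405). Against pair-fed, edgeR gave an adjusted p of 0.0968, and the DESeq2 call was lost in 5 of 12 fits with 1 liver left out, those without GDF15 replicate 2 (adjusted p = 0.0684), 4 (0.0655) or 6 (0.0953) and without pair-fed replicate 1 (0.185) or 3 (0.0999).

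The stretch before Cldn4, the gene with the largest fold change of the 10, is given because it was the sole one among the 7 genes with an entry in the promoter table that held an AP-1 motif. Capitals mark the 2 AP-1 motifs, which begin 240 and 158 bases before the start, and 1 GC box on the reverse strand.
Cldn4 promoter, chr5:134946935-134947184, minus strand: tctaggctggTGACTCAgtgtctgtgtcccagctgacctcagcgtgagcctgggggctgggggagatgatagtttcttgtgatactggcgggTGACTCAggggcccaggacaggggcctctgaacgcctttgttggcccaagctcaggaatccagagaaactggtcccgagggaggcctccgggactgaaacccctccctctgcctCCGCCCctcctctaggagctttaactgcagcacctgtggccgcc
A match describes the letters and not a site that is in use.

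Cldn7, on the plus strand of chromosome 11 at 69964779 to 69967885, held 12.2, 40.5 and 75.0 normalized counts in the lowest, median and highest vehicle livers, 8.26, 16.9 and 22.9 in GDF15 livers and 13.4, 22.3 and 56.0 in pair-fed livers. The groups overlapped, and 4 of 6 vehicle livers were above all GDF15 livers. Cldn7 was lower than in vehicle (log2 fold change -1.37, SE 0.42, DESeq2 adjusted p = 0.00573), with a value of -0.78 against pair-fed (adjusted p = 0.161) and -0.59 for pair-fed against vehicle (adjusted p = 0.998).

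Sox9, the transcription factor that specifies duct cells and is switched on in hepatocytes that take on duct features, lies on the plus strand of chromosome 11 at 112782224 to 112787760. Vehicle livers held 81.0, 147.9 and 243.8 normalized counts (lowest, median and highest), GDF15 livers 71.4, 94.98 and 108.5, and pair-fed livers 91.3, 112.9 and 184.2. The GDF15 group was the narrowest, and 5 of 6 vehicle livers were above all of it. Sox9 fell by 0.76 on the log2 scale against vehicle (SE 0.22, DESeq2 adjusted p = 0.00379), and the value against pair-fed was -0.40 (adjusted p = 0.173) with a 95% interval of -0.84 to 0.04. With total-count scaling that value was -0.58 (adjusted p = 0.0463).

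Over the 10 genes, the GDF15 and vehicle livers did not overlap for 3, Krt8, Krt18 and Cd24a, against 7.58% of the 12883 genes with a mean of at least 10 normalized counts. The GDF15 and pair-fed livers did not overlap for 1, Krt8, against 5.62%. The pair-fed and vehicle livers overlapped for all 10, and pair-fed livers were all below vehicle livers for 0.101% of genes.

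Per kilobase of coding transcript, a scale on which genes can be set roughly against each other, vehicle livers held 5348 ± 741 normalized counts of Krt8 and 4307 ± 520 of Krt18 (SD, n = 6), with SD ranges that overlapped. The next were Cd24a at 168 ± 91.2, Epcam at 98.1 ± 51.1 and Krt23 at 63.2 ± 15.0. They were followed by Cldn7 at 50.5 ± 31.0, Krt19 at 48.5 ± 24.01, Sox9 at 37.8 ± 14.2, Krt7 at 27.4 ± 12.2 and Cldn4 at 11.6 ± 8.02. From Cd24a down, the SD ranges of neighbours in this order overlapped. The length taken was the median of a gene's annotated coding transcripts, and which transcripts were present was not determined. The median and longest lengths were 2368 and 4094 bases for Krt7 and 1324.5 and 2040 for Epcam. They were 835 and 1335 bases for Cldn7 and 1279.5 and 1816 for Cd24a. The order from Cd24a down is therefore not firm. In GDF15 livers the level per kilobase was 2865 ± 274 for Krt8 and 2750 ± 413 for Krt18, so that this pair was closer to equal there, and it was 23.8 ± 8.79 for Krt19 and 13.7 ± 3.78 for Krt7. The spread between vehicle livers differed by gene, with a coefficient of variation of 13.9% for Krt8 and 12.1% for Krt18 against 37.6% to 69.1% for the 7 duct genes, by which Krt7, Krt19, Epcam, Sox9, Cldn4, Cldn7 and Cd24a are meant here. In the GDF15 group the coefficient of variation was 9.55% for Krt8 and 15.03% for Krt18, and it ran from 16.6% (Sox9) to 58.6% (Cldn4) for the 7 duct genes.

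Ratios within each liver do not depend on the scaling of its library. The ratio of Krt18 to Krt8 normalized counts was 0.593 ± 0.0420 in vehicle, 0.704 ± 0.0730 in GDF15 and 0.617 ± 0.0386 in pair-fed livers (SD, n = 6), with ranges of 0.538 to 0.645, 0.629 to 0.831 and 0.570 to 0.666 that overlapped. On the log2 scale the GDF15 mean was 0.24 above vehicle and 0.19 above pair-fed. The log2 ratio of Krt19 to Krt8 was -7.24 ± 0.586 in vehicle, -7.32 ± 0.529 in GDF15 and -7.89 ± 0.723 in pair-fed livers. The log2 ratio of Krt7 to Krt19 was -0.21 ± 0.153, -0.17 ± 0.341 and -0.19 ± 0.207, so the duct keratins kept to each other in all groups within their spread. These ratios are given as a description.

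**Figure D3:**
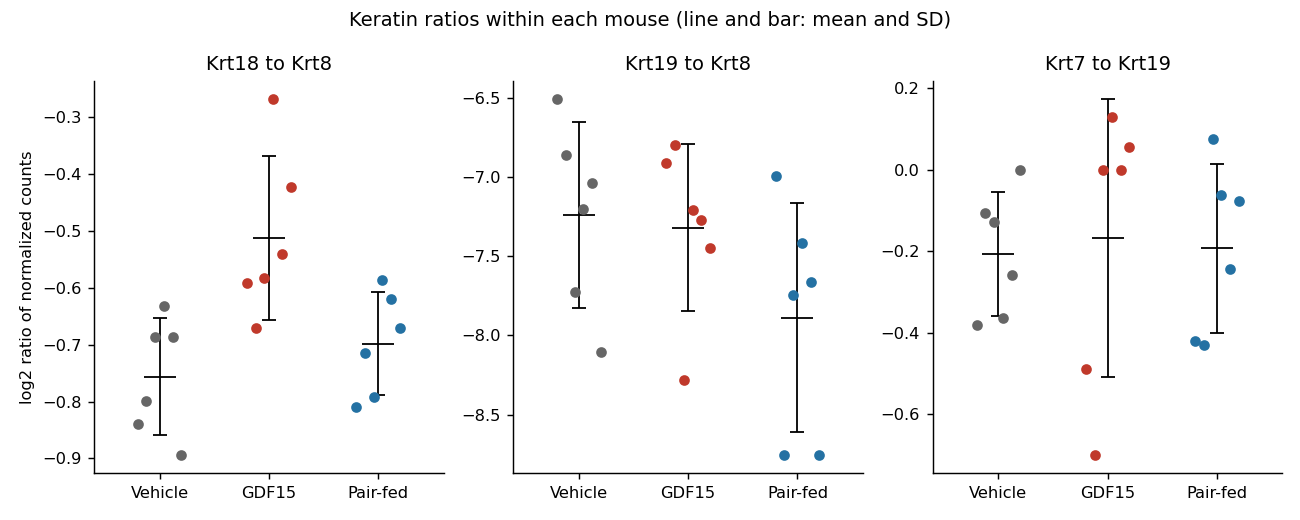
Log2 ratio of normalized counts of keratin genes within each liver (points, replicates 1 to 6 from left to right), with the mean (line) and SD (bar) of each group of 6; the vertical axes differ and do not start at 0. The Krt18 to Krt8 ratio of the GDF15 livers reaches from -0.67 to -0.27 against -0.89 to -0.63 in vehicle, and the Krt7 to Krt19 ratio has nearly the same mean in each group.

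In the vehicle and pair-fed groups, the same livers tended to be high or low for most duct genes. Vehicle replicate 1 was the highest vehicle liver for 7 of the 10 genes and among the top 2 for 9, vehicle replicate 2 was among the top 2 for 9, and vehicle replicate 3 was among the lowest 2 for all 10. Pair-fed replicate 1 was the highest pair-fed liver for each of the 7 duct genes, whereas pair-fed replicate 2 was the highest for Krt8 and Krt18 and among the lowest 2 for Krt7, Krt19 and Krt23. Pair-fed replicate 6 was among the lowest 2 for 8 of the 10 genes. In the GDF15 group no liver was the highest for more than 3 of the 10. GDF15 replicate 2 was the highest for Krt19, Krt23 and Epcam but among the lowest 2 for Cldn7, and GDF15 replicate 6 was the highest for Sox9 and Cldn7 but among the lowest 2 for Krt19, Cldn4 and Cd24a. Spp1, which macrophages also make, was the largest of 20 other cholangiocyte markers by mean in vehicle and pair-fed livers (4867 and 3145). The summed counts of these 20 markers were also highest in vehicle replicates 1 (17453) and 2 (16029) and in pair-fed replicate 1 (14488). The same 3 livers had the highest summed counts of 10 stellate cell and fibroblast markers in their groups (15216, 13842 and 12754). The summed counts of 12 hepatocyte markers were the lowest of the vehicle group in vehicle replicates 1 and 2 (1631300 and 1637200). In the pair-fed group they were lowest in replicate 2 (1505200) and next lowest in replicate 1 (1518600). Without vehicle replicate 1, 8 of the 10 genes stayed lower in the GDF15 against vehicle comparison, and without pair-fed replicate 1, 2 of the 10 stayed lower against pair-fed.

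**Figure D4:**
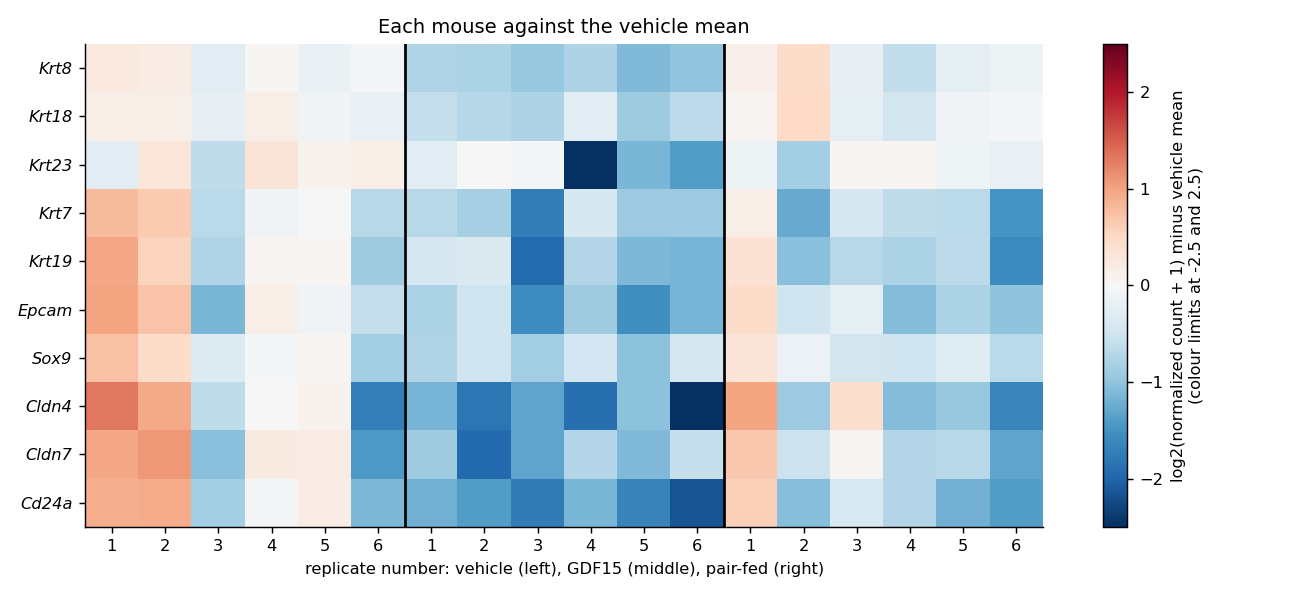
Each liver (columns, replicates 1 to 6 of the vehicle, GDF15 and pair-fed groups from left to right) against the vehicle mean of each gene (rows), as the difference of log2(normalized count + 1), with colours limited at -2.5 and 2.5. The 7 lower rows, the duct genes, are red together in vehicle replicates 1 and 2 and pair-fed replicate 1, while the Krt8 and Krt18 rows are reddest in pair-fed replicate 2.

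Correlations were computed over all 18 livers together after the mean of each group was subtracted, on log2(normalized count + 1), with no test. Among the 21 pairs of the 7 duct genes Pearson's r ran from 0.50 (Sox9 and Cldn4) to 0.93 (Krt7 and Krt19) with a median of 0.82, and Spearman's rho from 0.47 to 0.89. Krt8 and Krt18 correlated with each other at r = 0.89 (rho = 0.86) but with the duct genes at 0.15 to 0.65 (rho 0.19 to 0.73, 14 pairs). Krt23 stood apart, with r from -0.43 to 0.22 and rho from -0.27 to 0.25 across its 9 pairs. The sets were formed after these values were seen, and the points share the library and its scaling.

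Among all genes with a mean of at least 50 normalized counts, those with the most similar pattern to each gene were picked by the highest r, so the r values are high by choice. For Krt7 they were Scara3 (r = 0.93, rho = 0.86, and 0.92 without the 2 most distant livers) and Krt19, and for Krt19 they were Scara3 (r = 0.92) and Fstl1 (r = 0.91). Epcam was most like Ddr1, a collagen receptor kinase (r = 0.96, rho = 0.95, 0.94 without 2 livers), and Lamc3, a laminin chain (r = 0.95). Cd24a was most like Bicc1 (r = 0.94, rho = 0.94, 0.90 without 2 livers) and Tspan8 (r = 0.93), both on the list of other cholangiocyte markers. Cldn7 was most like Slc5a1 (r = 0.90), which is on that list too, and Rab31 (r = 0.88). Sox9 was most like Nedd9 (r = 0.92) and Scara3 (r = 0.89), and Cldn4 was most like Lpcat2 (r = 0.94) and Cybb (r = 0.90), a subunit of the phagocyte NADPH oxidase. Krt8 was most like Anxa5 (r = 0.92, rho = 0.87, 0.88 without 2 livers) and S100a11 (r = 0.92), both calcium-binding proteins, and Krt18 was most like Krt8 and Slc41a2 (r = 0.87). For Krt23 the genes were Hsd17b11, a lipid droplet dehydrogenase (r = 0.90, rho = 0.83, 0.79 without 2 livers), and Tfeb, a regulator of lysosomal genes (r = 0.90), and neither is a duct marker.

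Of the 20 other cholangiocyte markers, 10 were lower and 0 higher in GDF15 than in vehicle livers, and 5 were lower and 0 higher than in pair-fed livers. Of all genes, 17.5% were lower and 15.8% higher than in vehicle, and 13.8% lower and 13.3% higher than in pair-fed livers. Spp1, which encodes osteopontin and is also made by macrophages, had a log2 fold change of -1.99 against vehicle (DESeq2 adjusted p = 6.60e-07) and -1.36 against pair-fed (adjusted p = 0.00133), and Tspan8, a tetraspanin, had -2.33 (adjusted p = 4.76e-05) and -1.37 (adjusted p = 0.0292). Muc1, an apical mucin, had -1.68 and -1.20, and Anxa4 had -0.39 and -0.29, all 4 past the test. The summed counts of this list were 9426 to 17453 in vehicle, 7625 to 9796 in GDF15 and 9030 to 14488 in pair-fed livers. In group means, Spp1 alone made up 4867 of 13026 in vehicle, 1227 of 8612 in GDF15 and 3145 of 11109 in pair-fed livers. All 20 genes were measured and none had a median of 0 counts, so duct epithelium was represented in these samples. Of 19 other keratins, 8 were in the table and 1 of these, Krt10, had a mean of at least 10 normalized counts, with a log2 fold change of -0.16 against vehicle (adjusted p = 0.602). Of the 8, 3 were lower and 0 higher against vehicle, namely Krt20, Krt79 and Krt80, which were named after their values were seen and had means of 3.09, 3.37 and 7.17 normalized counts over all livers. Against pair-fed 2 were lower, Krt20 and Krt79, and 0 higher, and these 2 calls became 0 without GDF15 replicate 2, 3 or 6 or pair-fed replicate 1, 3, 4 or 6, and 1 without GDF15 replicate 4 or 5.

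Desmosomes and plakins anchor keratin filaments at the cell border. Of 12 genes of this kind, 4 were lower and 1 was higher in GDF15 than in vehicle livers, and 1 was lower than in pair-fed livers, against 17.5% of all genes lower and 15.8% higher than in vehicle and 13.8% lower and 13.3% higher than in pair-fed livers. Against pair-fed, 2 of the 12 passed without GDF15 replicate 5 or pair-fed replicate 3, 5 or 6, and 3 without pair-fed replicate 4. Pkp1, a plakophilin, was lower in both (-2.23 on the log2 scale with a DESeq2 adjusted p of 1.58e-07, and -1.57 with 0.000563), from 30.5 ± 7.67 normalized counts in vehicle to 6.40 ± 3.67 in GDF15 livers (SD, n = 6). Dsp, the desmoplakin that links filaments to desmosomes, fell by 0.35 against vehicle (adjusted p = 0.00751), and Dsg2, a desmosomal cadherin, was higher by 0.20 (adjusted p = 0.00295). Of 16 other tight junction genes in the table, 6 were lower and 3 higher against vehicle, and 1 was lower and 2 higher against pair-fed, beside the same shares of all genes. The 9 calls against vehicle became 5 without vehicle replicate 1, and the 3 against pair-fed became 5 without pair-fed replicate 4 or 6. Cldn2, a pore-forming claudin that hepatocytes also make, was lower in both (-0.38, adjusted p = 0.000144, and -0.37, adjusted p = 0.000331), and Cldn12 was higher in both (0.30, adjusted p = 6.14e-06, and 0.24, adjusted p = 0.000403).

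Notch signalling and the YAP and TEAD factors direct liver cells toward the duct fate, and Sox9 is a known target of both. Of 14 Notch pathway genes, 3 were lower and 2 higher against vehicle, and 3 were lower and 1 higher against pair-fed, where 17.5% and 15.8% of all genes were lower and higher than in vehicle and 13.8% and 13.3% than in pair-fed livers. These Notch counts lie near the shares of all genes, so they are not read as a result about the pathway. Without GDF15 replicate 2, the 5 Notch calls against vehicle became 3. The ligand gene Jag1 was lower in both (log2 fold change -0.59, DESeq2 adjusted p = 0.000521, and -0.40, adjusted p = 0.0304), as was the target gene Heyl (-0.90, adjusted p = 0.000157, and -0.80, adjusted p = 0.00113), while the coactivator gene Maml1 was higher in both (0.21 and 0.31). Of 13 YAP and TEAD genes and targets, 8 were lower and 0 higher against vehicle, and 6 were lower and 1 higher against pair-fed. Ajuba, a scaffold protein that restrains the Hippo kinases, was lower in both (-1.34, adjusted p = 3.03e-10, and -0.88, adjusted p = 9.00e-05), and Ankrd1, a classical YAP target, was lower in both (-1.98 and -1.31). Of 15 genes for signals and matrix receptors of the ductular reaction, 11 were lower and 2 higher against vehicle, and 8 were lower and 1 higher against pair-fed. The TWEAK receptor gene Tnfrsf12a was lower in both (-1.21, adjusted p = 1.13e-05, and -1.13, adjusted p = 7.03e-05), as was Cd44, the hyaluronan receptor (-1.21 and -0.997), and the chemokine gene Cxcl12 was higher in both (0.42 and 0.37). None of the genes of these lists passed the test between pair-fed and vehicle livers. Scaling by total counts, which shifts all GDF15 values downward, kept the sign of every gene of the desmosome, tight junction, Notch, YAP and ductular lists that had passed, but most of the higher calls were lost. Against vehicle Dsg2, Cldn14, Ocln, Dll1, Maml1 and Met no longer passed (log2 fold changes of 0.02 to 0.20), and Cldn12 (0.13) and Cxcl12 (0.24) did. Against pair-fed Cldn12, Maml1 and Tead3 no longer passed (0.08 to 0.17), and Ocln (0.36) and Cxcl12 (0.22) did.

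**Figure D5:**
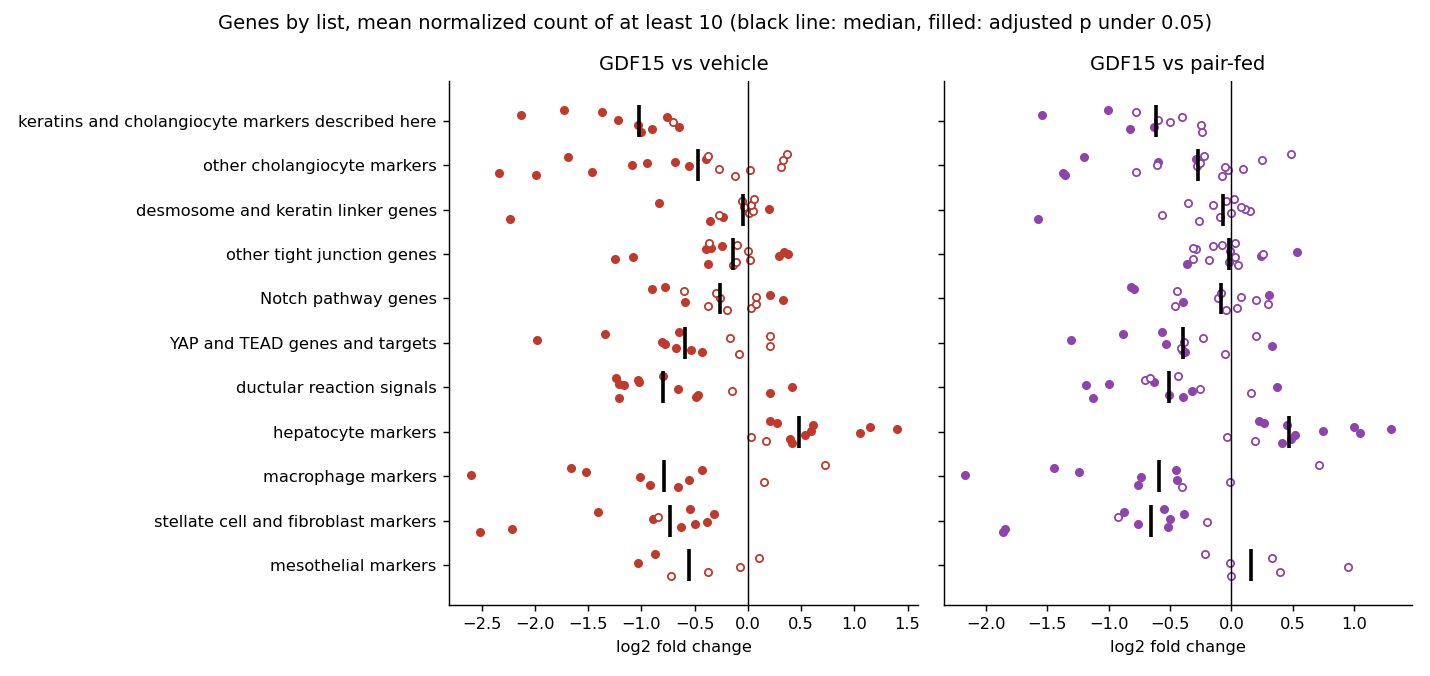
Log2 fold change of single genes (points) with a mean of at least 10 normalized counts, by list, for GDF15 against vehicle (left) and GDF15 against pair-fed (right), with the median of each list (black line). The median of the keratins and cholangiocyte markers is -1.02 on the left and -0.61 on the right, and the hepatocyte markers lie mostly to the right of 0, with medians of 0.48 and 0.47.

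Markers of other liver cells were counted in the same comparisons. Of all genes, 17.5% were lower and 15.8% higher than in vehicle, and 13.8% lower and 13.3% higher than in pair-fed livers. The endothelial, neutrophil, erythroid and intestinal counts below lie near these shares. Of 12 hepatocyte markers, 10 were higher in GDF15 than in vehicle livers and 10 were higher than in pair-fed livers, and their summed counts were 1631300 to 2098600 in vehicle, 2386200 to 2760600 in GDF15 and 1505200 to 2305000 in pair-fed livers. With total-count scaling 8 were higher than in vehicle livers, with Asgr1 and F9 lost, and 7 higher than in pair-fed livers, with Cyp2e1, Asgr1 and F9 lost. Krt8 and Krt18, which hepatocytes make, went the other way from these markers. Of 10 stellate cell and fibroblast markers, 9 were lower against vehicle and 8 against pair-fed, with sums of 8843 to 15216, 4509 to 6855 and 8030 to 12754 in the vehicle, GDF15 and pair-fed groups. Of 10 macrophage markers, 8 and 7 were lower, with sums of 4519 to 9203, 2922 to 5869 and 4422 to 7267. Mesothelial cells of the liver surface also make Krt7, Krt8, Krt18 and Krt19. Of the 6 mesothelial markers in the table, 2 were lower against vehicle and 0 against pair-fed, and their sums were 130 to 390, 93.5 to 329 and 60.2 to 322. The 2 calls became 1 without vehicle replicate 1, 4 or 5 or GDF15 replicate 2, 3 or 5, and 1 gene passed against pair-fed without pair-fed replicate 4. The median log2 fold change of the 6 mesothelial markers was -0.55 against vehicle and 0.16 against pair-fed. For pair-fed against vehicle it was -0.75, and 0 of the 6 passed. Of 6 B cell markers, 1 was lower against vehicle and 4 against pair-fed, with sums of 112 to 383, 64.2 to 188 and 129 to 444. The call against vehicle became 0 without vehicle replicate 1 or 4 or GDF15 replicate 1, 2 or 4, 2 without GDF15 replicate 3 and 3 without vehicle replicate 5. No marker of these 5 lists had a median of 0 counts. The part of these cells in the keratin and duct marker values was not tested. Of 7 endothelial markers, 1 was lower and 1, Clec4g, higher against vehicle, where Clec4g was lost with total-count scaling and 1 call was left without GDF15 replicate 5, and 2 were lower against pair-fed. Of the 6 neutrophil markers in the table, 0 passed in either comparison, although 1 passed against vehicle without vehicle replicate 6 and 1 against pair-fed without pair-fed replicate 5. Of the 5 erythroid markers 1, Klf1, was higher in both, and it was lost against pair-fed without GDF15 replicate 3. Of the 5 acinar markers of the pancreas in the table, 3 (Cela3b, Cpb1 and Amy2a5) had a median of 0 counts over all livers together. Of the 5, 2 were higher against vehicle and 1 against pair-fed. The 2 calls against vehicle became 1 without vehicle replicate 2, 5 or 6 or GDF15 replicate 4 or 6. Of the 6 intestinal and gall bladder markers in the table, 1 was lower and 1 higher in each GDF15 comparison, and against pair-fed 1 of the 2 was left without GDF15 replicate 5 or 6 or pair-fed replicate 5 or 6.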

How the data were processed

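Total RNA from liver was sequenced with a directional kit. The authors trimmed reads with Trim Galore, quantified them with Salmon and deposited 1 table of estimated counts per gene, rounded to whole numbers and not scaled (expected counts). The submitters' processing notes name the build mm10, and versions are not given in the sources used here. Salmon splits reads that several transcripts share, so counts of near-identical copies are uncertain. All 18 columns were used, and groups and replicate numbers came from the sample titles. P-values weigh the difference between groups against the spread between these samples.

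The test was the Wald test of DESeq2 (1.42.0, in R 4.3.3) after the study's methods, in 1 fit of all 18 livers with group as its single term, with independent filtering and with size factors from medians of ratios. Passing means an adjusted p under 0.05, and past both thresholds adds an absolute log2 fold change above 1. Intervals are 95%. edgeR (version 4.0.16), other scalings and filters, thinning to the smallest library, sets of replicates, a replicate block and leaving out each liver were the alternatives. The procedure was tested on simulated data. Correlations, ratios and plots used Python 3.11.15 (pandas 2.3.3, numpy 2.4.6, matplotlib 3.10.9), and lengths per kilobase are the median coding transcript of GENCODE M21. Genes named for their results beyond the 10 were at most 4 per list, and the 2 genes of highest correlation with each gene. Those of a list had the lowest adjusted p against vehicle at a mean of at least 10 normalized counts. Other genes were named because scaling changed their call or because their median was 0 counts. Krt20, Krt79 and Krt80 were named after their values were seen. The 10 genes, the 17 other lists and the tests were chosen with earlier results of these data known. Tables of protein sequence were not used here, and Krt19, Sox9 and Cd24a have no entry in the promoter table.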

Additional observations from a re-analysis of the deposited data

Results flagged for a closer look

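In 3 of the 39 sets of 6 values examined, 1 liver lay far from the other 5 by Dixon's criterion, where chance gives about 1 in 20, or 1.95 of 39. All 3 were pair-fed livers. Pair-fed replicate 1 held 89.4 normalized counts of Krt19, against 22.1 to 43.7 in the other pair-fed livers, and 285.5 of Cd24a, which was also the highest of its group. Pair-fed replicate 2 held 53.3 normalized counts of Krt23, the lowest of its group. The cause was not tested.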

How the results depend on the processing

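The number of the 10 genes lower in GDF15 than in vehicle livers was 9, and it was 8 to 10 with 1 liver left out and 6 past both thresholds. It was 8 with replicates 1 to 3 alone, 5 with replicates 4 to 6 alone and 9 or 10 under the other settings run. Against pair-fed it was 4, and it was 2 with edgeR, 4 with replicates 1 to 3 alone, 2 with replicates 4 to 6 alone, 2 past both thresholds, 2 to 4 with 1 liver left out and 3 to 5 under the other settings run, and the call for Cd24a was also lost without independent filtering (adjusted p = 0.0522) and after thinning (0.0570). Between pair-fed and vehicle it was 0 throughout. Against vehicle the median log2 fold change of the 10 genes was -1.27 with replicates 1 to 3 alone and -0.86 with replicates 4 to 6 alone. Against pair-fed these medians were -0.84 and -0.31, and the difference between the sets was not tested. Signs turned in these cases: with replicates 1 to 3 alone, Krt23 against vehicle (0.036) and pair-fed (0.16), and Krt8 (0.081) and Krt18 (0.099) for pair-fed against vehicle; with replicates 4 to 6 alone, Krt7 (0.18) and Cldn7 (0.12) against pair-fed; without pair-fed replicate 1, Krt19 against pair-fed (-0.40 to 0.065 with 1 liver left out); and without pair-fed replicate 4, Krt8 (-0.20 to 0.020) and Krt18 (-0.15 to 0.056) for pair-fed against vehicle. None of these 9 values passed the test, and the cause was not tested. Total-count scaling moved the median of all genes to -0.15 in both GDF15 comparisons, with 4946 genes lower and 722 higher against vehicle (2562 and 2323 otherwise) and 4439 and 626 against pair-fed (1983 and 1911 otherwise). The median of the 10 genes relative to all genes was -1.07 against vehicle under it and -1.04 otherwise. With replicates 1 to 3 alone 1595 genes were lower than in vehicle, 1499 lower than in pair-fed and, for pair-fed against vehicle, 1. With replicates 4 to 6 alone 1399 were lower than in vehicle, 1100 lower than in pair-fed and, for pair-fed against vehicle, 11. The titles give every group the numbers 1 to 6, but same-number correlations ran from -0.22 to 0.52 and at most 2 of 6 livers of a group correlated best with their own number, so the numbers were not taken as pairing. With the replicate block, the number of the 10 genes lower was 9 against vehicle and 4 against pair-fed, and 2 genes in all were lower in pair-fed than in vehicle livers. Depth limits Cldn4 and Cldn7 most, at 0 to 8 and 8 to 21 counts in GDF15 livers.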
